A study of Mus musculus with 2 samples.

Results

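The 6 genes *Bcl11a*, *Bcl11b*, *Fezf2*, *Sox5*, *Bhlhe22* and *Tle4* are described here across the neuron classes of the early mouse telencephalon and the progenitors of those neurons. They were chosen by symbol as factors known from early cortical projection neurons, and are 6 of 32286 features counted in a library of the telencephalic vesicle and 6 of 28001 features counted in a library of septal explants. Each symbol matched 1 feature in each library. The study asked how the transcription factor Dbx1 and cell adhesion shape cell sorting in the developing telencephalon, and used the libraries as maps of where genes are expressed.

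The telencephalic vesicle library pooled 3 wild-type embryos of 2 litters, labelled E12 and given in the study's methods as E11.5 to E12, with an input of 20000 cells and chemistry version 3.1 of the 10x Genomics droplet kit. The septal library pooled explants of 8 E11.5 *PGKCre;Rosa26YFP* embryos and 4 E12.5 *Dbx1Cre;Rosa26tdTomato* embryos, 2 litters of each, with an input of 10000 cells and kit version 2. PGKCre acts through a ubiquitous promoter, so that YFP marks cells of the younger embryos in general, whereas tdTomato marks cells of the older embryos with a history of *Dbx1* expression. In that library age, genotype and dissection go together and cannot be told apart. Both samples carry the label wild-type, and the mice were C57BL/6J.

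Cortical projection neurons arise from apical progenitors (APs) at the ventricle, directly or through basal progenitors (BPs), and their subtype is set by transcription factors that repress each other. Fezf2 and its downstream factor Bcl11b (Ctip2) are known for subcerebral projection neurons, Sox5 for the timing of deep-layer fates, and Tle4 for corticothalamic neurons. Several of these genes are also used outside the cortex, for example *Bcl11b* in striatal neurons and *Bcl11a* in blood cells.

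Counts are unique molecular identifiers (UMIs), each of which stands for 1 captured transcript molecule. Levels are CPM, the UMIs of a gene per 1000000 UMIs of all genes in the cells of a class, with an exact Poisson 95% interval in brackets. Ratios of levels carry an exact conditional binomial 95% interval, and shares of cells an exact Clopper-Pearson one. All of these intervals cover counting error only. Each condition had 1 library and its embryos were pooled, so there are no replicates, no test was made and no p-value is given. Levels are not compared between the libraries, which differ in kit and counting software, or between genes.

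After filtering, the telencephalic vesicle library held 11758 cells with a median of 9058.5 UMIs, and the septal library held 5384 cells with a median of 12868.5. The libraries shared 1 cell barcode. The cells formed 28 and 29 clusters, built without the 6 genes and named from marker genes, and 3 and 2 clusters with 982 and 303 cells stayed unnamed. Class names carry "-like" because they rest on these markers alone. Free RNA of blood cells reached the other classes: the summed level of 7 erythroid genes was 1642 CPM in pallial-like APs and 5405 CPM in pallial neurons of the telencephalic vesicle, and 458 to 625 CPM in the neural classes of the septal explants with a name. Neurons of the telencephalic vesicle were also shallower than APs, with medians of 6923 UMIs in pallial neurons and 13085 in pallial-like APs. The part of free RNA and of depth in the differences below was not tested.

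In the telencephalic vesicle the 6 pallial neuron markers summed to 1027 CPM in the 645 pallial glutamatergic-like neurons and to 39.0 CPM in the 652 GABAergic-like neurons, and the 7 GABAergic markers to 30.0 and 2933 CPM. In the septal explants the pallial list summed to 2495 CPM in the 306 pallial glutamatergic-like neurons and to 655 CPM in the 327 septal glutamatergic-like neurons. Some clusters met more than 1 marker list. Of the septal neurons, a cluster of 183 cells met all 7 BP markers and 6 of 8 Cajal-Retzius markers beside all 7 septal neuron markers, and another of 144 cells met 6 of 8 Cajal-Retzius markers. Of the pallial neurons of the septal explants a cluster of 202 cells met 4 of 8 Cajal-Retzius markers, and of the septal-like APs of the telencephalic vesicle a cluster of 409 cells met 3 of 6 markers of both septal and pallial APs. The label of early cortical projection neuron factors did not hold for all 6 genes as a statement of where each was highest. Among named classes pallial neurons ranked first for *Bcl11a* alone in the telencephalic vesicle, and for *Bcl11a*, *Bcl11b*, *Sox5* and *Bhlhe22* in the septal explants. For *Sox5* the interval overlapped that of septal glutamatergic-like neurons, at 58.8 CPM [51.3-67.1] and 51.5 CPM [44.4-59.5]. In cells with at least 3 YFP UMIs the septal neurons had more *Sox5*, at 55.4 CPM against 27.0 CPM.

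*Fezf2* (ENSMUSG00000021743), at chr14:12342094-12348189 on the minus strand of GRCm38, encodes a zinc finger repressor. *Bcl11b* (ENSMUSG00000048251) at chr12:107910403-108003602 on the minus strand and *Bcl11a* (ENSMUSG00000000861) at chr11:24078056-24174123 on the plus strand encode paralogous zinc finger proteins that work with chromatin complexes. *Sox5* (ENSMUSG00000041540), at chr6:143828425-144781977 on the minus strand, encodes a SoxD protein without a transactivation domain of its own. *Bhlhe22* (ENSMUSG00000025128), a gene of 1 exon at chr3:18054174-18057517 on the plus strand, encodes a basic helix-loop-helix repressor. *Tle4* (ENSMUSG00000024642), at chr19:14448150-14598051 on the minus strand, encodes a Groucho corepressor that binds no DNA by itself.

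Introns made up 0% of the *Bhlhe22* gene, 50% of *Fezf2*, 86.3% of *Bcl11a*, 91.3% of *Bcl11b*, 96.2% of *Tle4* and 98.5% of *Sox5*. The septal library was counted with default settings, which in Cell Ranger 2.1.1 take exonic reads. The telencephalic vesicle library was counted with Cell Ranger 7.1.0, and the sources used here do not say whether intronic reads were included. This bears most on the genes with long introns, of which *Sox5* and *Tle4* have the largest shares. *Sox5* also overlaps 2 genes on its own strand and 5 antisense genes, and *Bcl11a* overlaps 2 antisense genes, *Gm12064* and *4930538E20Rik*. Reads shared with the same-strand neighbours of *Sox5* could be split or lost in counting.

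RefSeq promoters of GRCm38.p6, from 250 bases before to 50 bases after a transcription start, were found for 5 of the 6 genes, all but *Bhlhe22*. The 3 printed are those of the zinc finger genes, and they differ in base composition. Capitals mark the E-box CANNTG, the TATA box TATAAA and the CCAAT box, searched on both strands. The *Bcl11a* promoter lies at chr11:24080445-24080744 on the plus strand, that of *Bcl11b* at chr12:108003365-108003664 on the minus strand, and that of *Fezf2* at chr14:12345816-12346115 on the minus strand.
Bcl11a: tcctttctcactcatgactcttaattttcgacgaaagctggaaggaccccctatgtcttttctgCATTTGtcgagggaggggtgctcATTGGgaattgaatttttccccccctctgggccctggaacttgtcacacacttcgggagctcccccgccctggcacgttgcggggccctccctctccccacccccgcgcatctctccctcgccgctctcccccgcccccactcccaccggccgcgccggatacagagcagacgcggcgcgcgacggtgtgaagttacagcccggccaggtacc
Bcl11b: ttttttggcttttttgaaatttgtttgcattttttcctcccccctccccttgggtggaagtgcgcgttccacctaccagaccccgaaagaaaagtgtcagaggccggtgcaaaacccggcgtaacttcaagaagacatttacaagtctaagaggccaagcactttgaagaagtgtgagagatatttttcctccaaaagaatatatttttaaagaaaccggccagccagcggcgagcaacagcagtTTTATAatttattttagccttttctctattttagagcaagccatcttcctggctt
Fezf2: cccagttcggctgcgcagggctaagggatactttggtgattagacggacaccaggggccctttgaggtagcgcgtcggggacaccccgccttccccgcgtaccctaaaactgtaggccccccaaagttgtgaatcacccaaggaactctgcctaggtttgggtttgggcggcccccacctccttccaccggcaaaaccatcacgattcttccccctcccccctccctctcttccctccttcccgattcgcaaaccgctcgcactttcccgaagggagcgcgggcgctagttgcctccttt

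The *Bcl11a* promoter was rich in G and C (63.0%, 23 CpG) and held 1 CANNTG and 1 CCAAT. The *Bcl11b* promoter had 43.0% G and C with 9 CpG and held 1 TATAAA. In the *Fezf2* promoter, with 61.3% G and C and 20 CpG, these motifs were not found. CANNTG was in 72.3% of 32544 promoters of the same length, CCAAT in 37.4% and TATAAA in 13.6%, and the median promoter had 53.0% G and C and 7 CpG. The *Tle4* promoter at chr19:14598134-14598433 held 2 CANNTG and 2 CCAAT, and a second *Tle4* promoter at chr19:14597164-14597463 and that of *Sox5* at chr6:143947057-143947356 held none. The E-box CAGATG and the Sox-type motif ACAAAG, found in 17.1% and 18.7% of all promoters, were in none of the 6 promoters of these genes. The windows of *Bcl11a*, *Fezf2* and *Sox5* and the second *Tle4* window lie wholly inside the gene spans given above. That of *Sox5*, a gene with 14 annotated transcripts, is far from the upstream end of the gene at 144781977. A match or its absence describes these letters in this window only.

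*Fezf2* was highest in BP-like cells of the telencephalic vesicle and in progenitors of its pallial and medial side. Its level was 158 CPM [148-168] in BP-like cells, 101 CPM [95.7-107] in hem-like progenitors, 92.5 CPM [88.9-96.1] in pallial-like APs, 72.6 CPM [69.6-75.7] in septal-like APs, 53.6 CPM [45.8-62.3] in Cajal-Retzius-like cells and 49.8 CPM [43.9-56.4] in pallial neurons. The 28 endothelial-like cells held 40.9 CPM [29.0-56.2], an interval that met that of pallial neurons. Subpallial-like APs had 5.84 CPM [5.04-6.72], and GABAergic-like neurons 4.79 CPM [3.04-7.19], an interval that met the 2.42 CPM [0.974-4.99] of erythroid-like cells. A *Fezf2* UMI was found in 61.5% of BP-like cells, 22.8% of pallial neurons and 2.76% of GABAergic-like neurons, against 1.75% of erythroid-like cells. With each cell thinned to 3500 UMIs these shares were 37.4%, 14.6%, 1.57% and 1.12%. Median depths of the 4 classes before thinning were 7467.5, 6923, 6594.5 and 5428.5 UMIs.

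*Bcl11b* followed a different map in the telencephalic vesicle, with the GABAergic classes above the pallial ones. It stood at 410 CPM [383-438] in Lhx6/Nkx2-1 GABAergic-like neurons, 276 CPM [256-296] in Isl1/Ebf1 GABAergic-like neurons, 272 CPM [258-286] in differentiating subpallial-like cells and 200 CPM [188-213] in pallial neurons. The intervals of the Isl1/Ebf1 neurons and the differentiating subpallial-like cells overlapped, and the others did not. AP classes lay lower, between 56.5 CPM in APs without a regional name and 96.6 CPM in septal-like APs, and pallial-like and subpallial-like APs could not be separated at 90.8 CPM [87.3-94.4] and 90.2 CPM [87.0-93.5] when their clusters were pooled. The 2 clusters of pallial-like APs stood apart, at 100.3 CPM [96.1-105] in 543 cells and 59.7 CPM [54.0-65.9] in 432 cells, and BP-like cells, at 74.8 CPM [68.0-82.1], lay between them. The median depths of these 2 AP clusters were 21142 and 8706 UMIs. Erythroid-like cells held 2.08 CPM.

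*Bcl11a* was highest in pallial neurons, at 648 CPM [626-670]. Next came the Lhx6/Nkx2-1 neurons at 463 CPM [434-493], then a group whose intervals met, of pallial-like APs at 318 CPM [311-325], Isl1/Ebf1 neurons at 311 CPM [290-332] and Cajal-Retzius-like cells at 307 CPM [288-327]. BP-like cells had 268 CPM [255-281], and the other AP classes and hem-like progenitors 142 to 182 CPM. A *Bcl11a* UMI was in 94.1% of pallial neurons (85.4% after thinning) and in 6.00% of erythroid-like cells (2.80% after thinning), a cell type that can use the gene itself.

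*Sox5* was highest in subpallial-like, VP-like and pallial-like APs of this library. The level was 460 CPM [453-467] in subpallial-like APs, 415 CPM [400-431] in ventral pallial (VP)-like APs, 414 CPM [407-422] in pallial-like APs, 321 CPM [314-329] in APs without a regional name, 297 CPM [290-303] in septal-like APs, 265 CPM [252-279] in BP-like cells and 144 CPM [138-151] in hem-like progenitors. It was 347 CPM [322-373] in Lhx6/Nkx2-1 neurons, but 175 CPM [164-187] in pallial neurons and 172 CPM [156-188] in Isl1/Ebf1 neurons, which did not differ beyond counting error. Within the pallial-like APs the 2 clusters stood apart, at 474 CPM [465-484] in 543 cells and 218 CPM [206-229] in 432 cells. The lower cluster was still above the pallial neurons, but below the Lhx6/Nkx2-1 neurons, and hem-like progenitors were below every neuron class.

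*Bhlhe22* was rare and confined, among classes with more than 3 CPM, to cells of the pallial neuron series and Cajal-Retzius-like cells. It stood at 32.0 CPM [27.6-37.0] in BP-like cells, 15.7 CPM [11.6-20.8] in Cajal-Retzius-like cells and 12.6 CPM [9.67-16.0] in pallial neurons, the last 2 with overlapping intervals. The shares of cells with a UMI were 19.2%, 10.3% and 8.22%, and 10.3%, 4.76% and 3.65% after thinning. Pallial-like APs had 0.464 CPM [0.247-0.794]. No UMI was found in 400 erythroid-like cells or 297 Lhx6/Nkx2-1 neurons, where 3 counts would make shares of 0.750% and 1.01%.

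*Tle4* was highest in Isl1/Ebf1 GABAergic-like neurons, at 578 CPM [550-607]. Cajal-Retzius-like cells (327 CPM [307-348]), Lhx6/Nkx2-1 neurons (321 CPM [297-346]) and septal-like APs (309 CPM [303-315]) followed with overlapping intervals, with the septal-like APs divided into clusters of 416 CPM [405-427], 239 CPM and 223 CPM. Pallial neurons (205 CPM [193-218]), choroid plexus-like cells (203 CPM [189-219]) and subpallial-like APs (202 CPM [198-207]) formed a lower group. Pallial-like APs had 167 CPM [162-171] and BP-like cells 139 CPM [130-149]. Erythroid-like cells held 31.2 CPM [25.0-38.3].

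**Figure D1:**
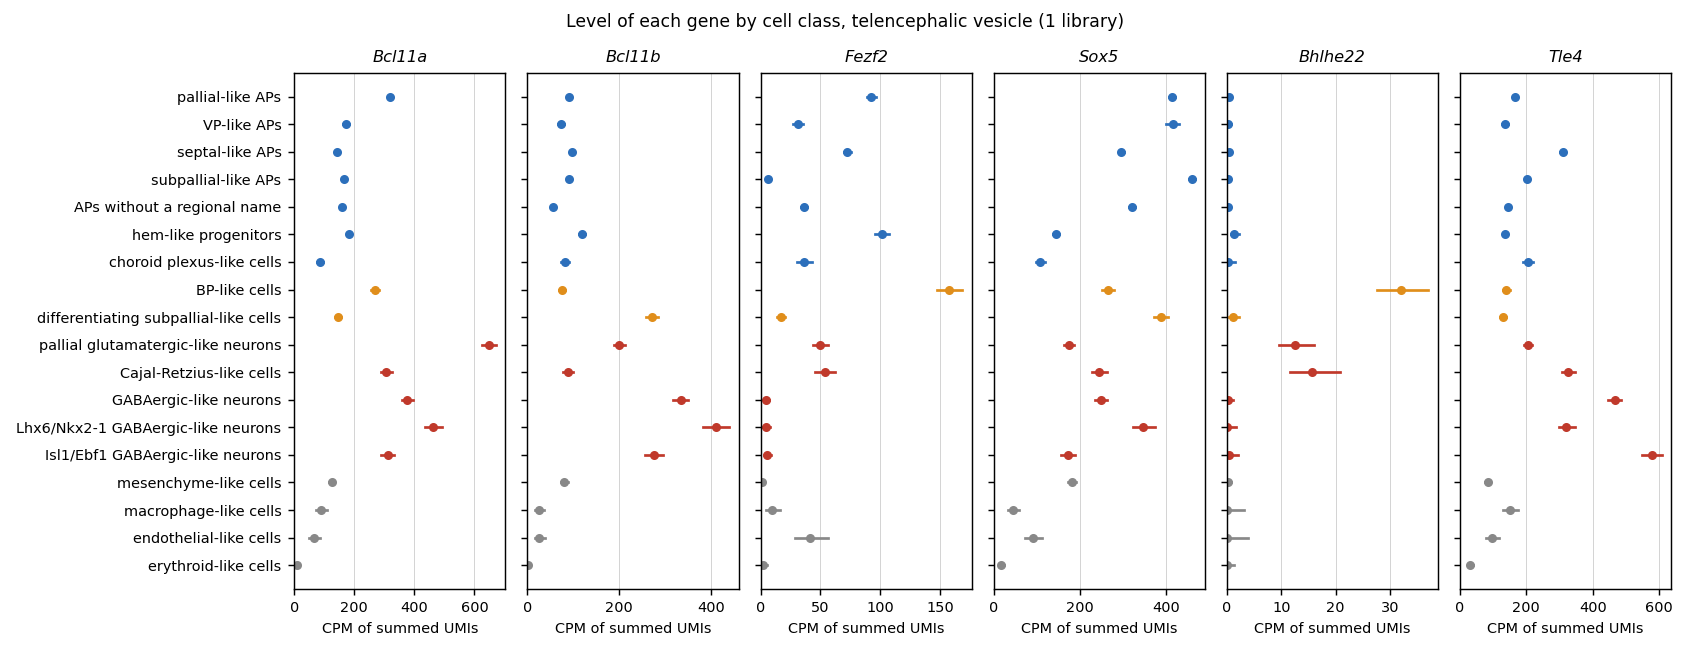
Level of each of the 6 genes (CPM of summed UMIs) in each class of the telencephalic vesicle library, with exact Poisson 95% intervals for counting error. *Bcl11a* is highest in pallial neurons (648 CPM), *Fezf2* and *Bhlhe22* in BP-like cells (158 and 32.0 CPM), *Bcl11b* and *Tle4* in GABAergic-like neurons, and *Sox5* in APs.

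The step from APs to neurons was compared within each region. A gene was counted as past 2-fold when its levels differed at least 2-fold and both classes together held at least 50 UMIs of it. For pallial neurons over pallial-like APs, 3 of the 6 genes were past 2-fold higher, where 16.2% of 12872 genes were, and 1 was past 2-fold lower, where 22.6% were. *Bhlhe22* was 27.1-fold higher (14.8-53.6), *Bcl11b* 2.20-fold (2.05-2.37) and *Bcl11a* 2.04-fold (1.96-2.12), and *Sox5* was 2.37-fold lower (2.21-2.54). *Fezf2* was 1.86-fold lower (1.63-2.12) and *Tle4* 1.23-fold higher (1.15-1.32). *Bcl11a* and *Bcl11b* were only just past the threshold, and with cell cycle genes kept in the clustering 2 of the 6 genes passed it, with log2 ratios of 0.68 for *Bcl11a*, 0.22 for *Bcl11b* and -0.16 for *Tle4*. With doublets kept the log2 ratio of *Sox5* was -0.76, short of 2-fold. The values also rest on pooling the 2 clusters of pallial-like APs, which held 351 and 210 CPM of *Bcl11a*, 100.3 and 59.7 CPM of *Bcl11b* and 474 and 218 CPM of *Sox5*. Against the former *Bcl11a* falls short of 2-fold, and *Bcl11b*, at 200 CPM in the neurons, falls just short of it. Against the latter *Sox5* falls short. These 2 clusters had median depths of 21142 and 8706 UMIs, against 6923 in pallial neurons, and the part of depth was not tested. The median log2 ratio was 0.66 over the 6 genes and -0.16 over all genes counted.

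In the subpallium 5 of the 6 genes had enough UMIs, all but *Bhlhe22* with 7. For GABAergic-like neurons over subpallial-like APs, 3 were past 2-fold higher, where 14.3% of 13180 genes were, and 0 past 2-fold lower, where 20.7% were. *Bcl11b* was 3.70-fold higher (3.48-3.93), *Tle4* 2.30-fold (2.19-2.42) and *Bcl11a* 2.28-fold (2.16-2.41). Taken alone, the Lhx6/Nkx2-1 neurons were short of 2-fold for *Tle4* and the Isl1/Ebf1 neurons for *Bcl11a*. *Sox5* was 1.85-fold lower (1.75-1.97) in the pooled neurons. By the levels given above, the Isl1/Ebf1 neurons taken alone were past 2-fold lower in *Sox5* and the Lhx6/Nkx2-1 neurons were not. *Fezf2*, with 23 and 194 UMIs, had a ratio of 0.821 (0.508-1.27). With doublets kept, 1 of these genes was past 2-fold. *Bcl11a* was past 2-fold in 5 of 10 alternatives, with a log2 ratio down to 0.69 with all barcodes, against 1.19. The median log2 ratio was 1.19 over the 5 genes and -0.12 over all genes counted.

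Pallial neurons were then set against GABAergic-like neurons. Of the 6 genes, 2 were past 2-fold higher in pallial neurons, where 4.39% of 10568 genes were, and 1 was past 2-fold lower, where 4.27% were. *Bhlhe22*, with 64 UMIs against 1, had a ratio of 60.3 (10.4-2417), *Fezf2* was 10.4-fold higher (6.78-16.7) and *Bcl11a* 1.72-fold higher (1.62-1.82). *Tle4* was 2.27-fold higher in the GABAergic-like neurons (2.11-2.44), *Bcl11b* 1.67-fold (1.54-1.81) and *Sox5* 1.42-fold (1.30-1.55). These values pool 2 subtypes whose levels are given above. Taken alone, the Lhx6/Nkx2-1 neurons were short of 2-fold over pallial neurons for *Tle4* but just past it for *Bcl11b*. For *Bcl11b* the Isl1/Ebf1 neurons were short of 2-fold. The Isl1/Ebf1 neurons did not differ from pallial neurons in *Sox5* beyond counting error. The 6 genes thus fell on both sides of this comparison. Over the 6 genes the median log2 ratio was 0.14 and -0.07 over all genes counted. At a clustering resolution of 2.5 the count over both directions was 1. *Tle4* then had a log2 ratio of -0.86, short of 2-fold. *Bhlhe22*, at 7.04 CPM against 0.178 CPM, was left out by the minimum of 50 UMIs.

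The same regional difference was looked for in progenitors. For pallial-like over subpallial-like APs, 1 of the 5 genes with enough UMIs was past 2-fold higher, where 3.34% of 13852 genes were, and 0 past 2-fold lower, where 6.01% were. *Fezf2* was 15.8-fold higher (13.7-18.4) and *Bcl11a* 1.93-fold higher (1.86-1.99). *Bcl11b* had a ratio of 1.01 (0.954-1.06), *Sox5* of 0.901 (0.879-0.923) and *Tle4* of 0.823 (0.793-0.854). The direction of *Tle4* turned with the clustering, from a log2 ratio of -0.28 to 0.39 with doublets kept, and 5 of 10 alternatives kept its sign. Its level was 182 and 116 CPM in the clusters of pallial-like APs and 118, 238 and 265 CPM in those of subpallial-like APs. The log2 ratio of *Bcl11b*, 0.01 here, was as low as -0.50 with doublets kept, and 2 of 10 alternatives shared its sign. *Bhlhe22* had 13 and 6 UMIs. Over the 5 genes the median log2 ratio was 0.01 and -0.03 over all genes counted.

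Cells of a lineage were ordered by the log2 ratio of 11 neuron genes to 9 AP genes and cut into 10 bins of equal size. The pallial lineage of the telencephalic vesicle held 2527 cells: pallial-like and VP-like APs, BP-like cells whatever their region, and pallial neurons. *Bcl11a* went from 222 CPM in the first bin to 332 CPM in bin 5, 266 CPM in bin 6 and 667 CPM in the last. The pallial-like and VP-like APs pooled here held 318 and 171 CPM of it. *Bcl11b* went from 62.7 to 238 CPM. *Fezf2* went from 62.5 CPM to 148 CPM [135-161] in bin 6 and 150 CPM [133-167] in bin 7, which did not differ beyond counting error. Bin 7 was the bin with the highest level of BP markers. In the last bin *Fezf2* was 21.4 CPM [15.5-29.0]. *Sox5* was highest in bin 2 at 460 CPM and lowest in bin 10 at 173 CPM. *Bhlhe22* was at most 0.489 CPM in the first 4 bins and stood at 9.19 CPM [5.45-14.5] in the last. Its highest values, 32.0 CPM [24.8-40.7] in bin 7 and 32.6 CPM [25.1-41.7] in bin 8, did not differ beyond counting error. *Tle4* stayed between 142 and 174 CPM up to bin 9 and was 246 CPM in bin 10.

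In the 2390 cells of the subpallial lineage, *Bcl11b* was 112 CPM in bin 7, 290 CPM in bin 8 and 348 CPM in the last bin. The median position of these cells also went from -1.83 in bin 7 to 1.77 in bin 8, a gap in the ordering. *Tle4* went from 147 CPM to 571 CPM and *Bcl11a* from 149 CPM to 443 CPM, each with its highest value in the last bin. *Sox5* was highest in bin 4 at 496 CPM and 184 CPM at the end. *Fezf2* was highest in bin 8, at 12 CPM. Differentiating subpallial-like cells, whose cells lay between APs and neurons, were in neither class of this lineage and had 272 CPM of *Bcl11b* and 16.9 CPM [13.7-20.6] of *Fezf2*.

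**Figure D2:**
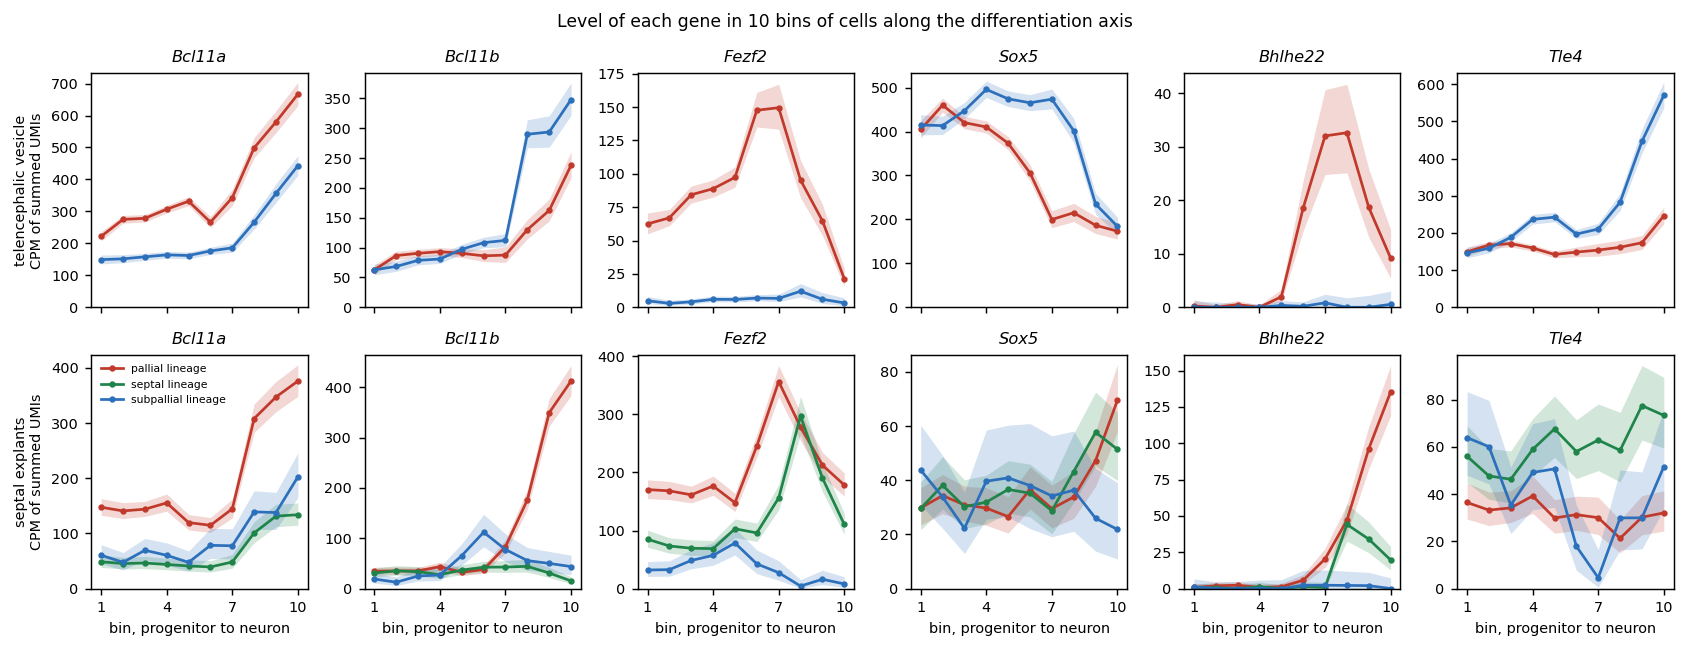
Level of each gene (CPM) in 10 equal-size bins of cells ordered from AP to neuron, for each lineage of each library. In the pallial lineage of the telencephalic vesicle *Fezf2* is highest in bins 6 and 7 and *Bhlhe22* in bins 7 and 8, with overlapping intervals within each pair. *Bcl11a* and *Bcl11b* are highest in bin 10.

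In the septal explants *Fezf2* was again highest in BP-like cells, at 341 CPM [325-358]. Differentiating subpallial-like cells (200 CPM [183-219]), septal glutamatergic-like neurons (193 CPM [179-208]), hem-like progenitors (187 CPM [172-203]), pallial-like APs (170 CPM [164-177]) and pallial neurons (166 CPM [153-179]) followed, each with an interval that met that of its neighbour in the order. Septal-like APs had 92.0 CPM [86.4-97.9], subpallial-like APs 48.8 CPM [41.9-56.6] and GABAergic-like neurons 18.2 CPM [13.2-24.4], against 23.3 CPM [13.6-37.3] in erythroid-like cells. A *Fezf2* UMI was in 90.7% of BP-like cells (85.8% at 8000 UMIs per cell) and in 13% of GABAergic-like neurons (7.94%), against 30.8% of the 26 erythroid-like cells (3.85%), whose median depth was 29045.5 UMIs. The share in GABAergic-like neurons was not above this reference before thinning, and the intervals of the levels overlapped.

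The septal neuron class was not uniform in *Fezf2*. Its cluster of 183 cells had 344 CPM [317-372] and its cluster of 144 cells 55.0 CPM [44.9-66.6], and *Bhlhe22* had 50.6 CPM [40.6-62.4] and 15.3 CPM [10.3-22.0] in the same clusters. The cluster of 183 cells is the one that also met the BP markers, and its *Fezf2* level was close to the 341 CPM of BP-like cells. The median position of the former on the axis was 3.20 and of the latter 4.46, so that the cluster further toward the neuron end had less of both genes. *Sox5* did not differ between them, at 51.8 CPM [41.7-63.7] and 51.3 CPM [41.6-62.6]. The differentiating subpallial-like cells also split for *Fezf2*, with 271 CPM [246-297] in 179 cells and 64.9 CPM [48.9-84.5] in 61 cells.

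*Bcl11b* in the septal explants separated pallial from septal neurons. Pallial neurons had 413 CPM [393-434] and an unnamed cluster of 154 cells 554 CPM [523-586], while septal glutamatergic-like neurons had 28.7 CPM [23.4-34.7] and GABAergic-like neurons 72.6 CPM [62.3-84.2]. BP-like cells had 77.6 CPM [69.7-86.0], and pallial-like and septal-like APs 35.9 CPM [32.9-39.1] and 35.4 CPM [32.0-39.1]. The share of cells with a UMI was 85.9% in pallial and 24.5% in septal neurons (82.2% and 16.7% after thinning), against 19.2% of erythroid-like cells (3.85% after thinning).

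*Bcl11a* was also highest in pallial neurons here, at 417 CPM [396-438], and the unnamed cluster of 154 cells had 368 CPM [343-394]. Cajal-Retzius-like cells had 199 CPM [183-217], and BP-like cells (146 CPM [135-157]), pallial-like APs (141 CPM [135-147]), GABAergic-like neurons (128 CPM [114-143]) and septal neurons (125 CPM [114-137]) lay together below them. Septal-like APs had 44.3 CPM [40.4-48.4]. The unnamed cluster was led by *Tfap2e*, *Calb2*, *Cbln2* and *Nxph1*, was left without a class by the naming rule and is given no cell type name.

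*Bhlhe22* reached 118 CPM [107-129] in pallial neurons, 63.1 CPM [53.0-74.6] in the unnamed cluster, 35.3 CPM [28.5-43.2] in Cajal-Retzius-like cells, 32.2 CPM [26.7-38.6] in septal neurons and 23.8 CPM [19.6-28.7] in BP-like cells. No other named class exceeded 2.83 CPM. *Sox5* was 58.8 CPM [51.3-67.1] in pallial neurons and 51.5 CPM [44.4-59.5] in septal neurons, and 17.9 to 35.5 CPM in the other neural classes with a name. *Tle4* was highest in Cajal-Retzius-like cells at 86.9 CPM [76.0-98.9] and septal neurons at 70.0 CPM [61.7-79.2], and was 27.9 CPM [22.9-33.8] in pallial neurons and 27.2 CPM [21.1-34.7] in GABAergic-like neurons.

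**Figure D3:**
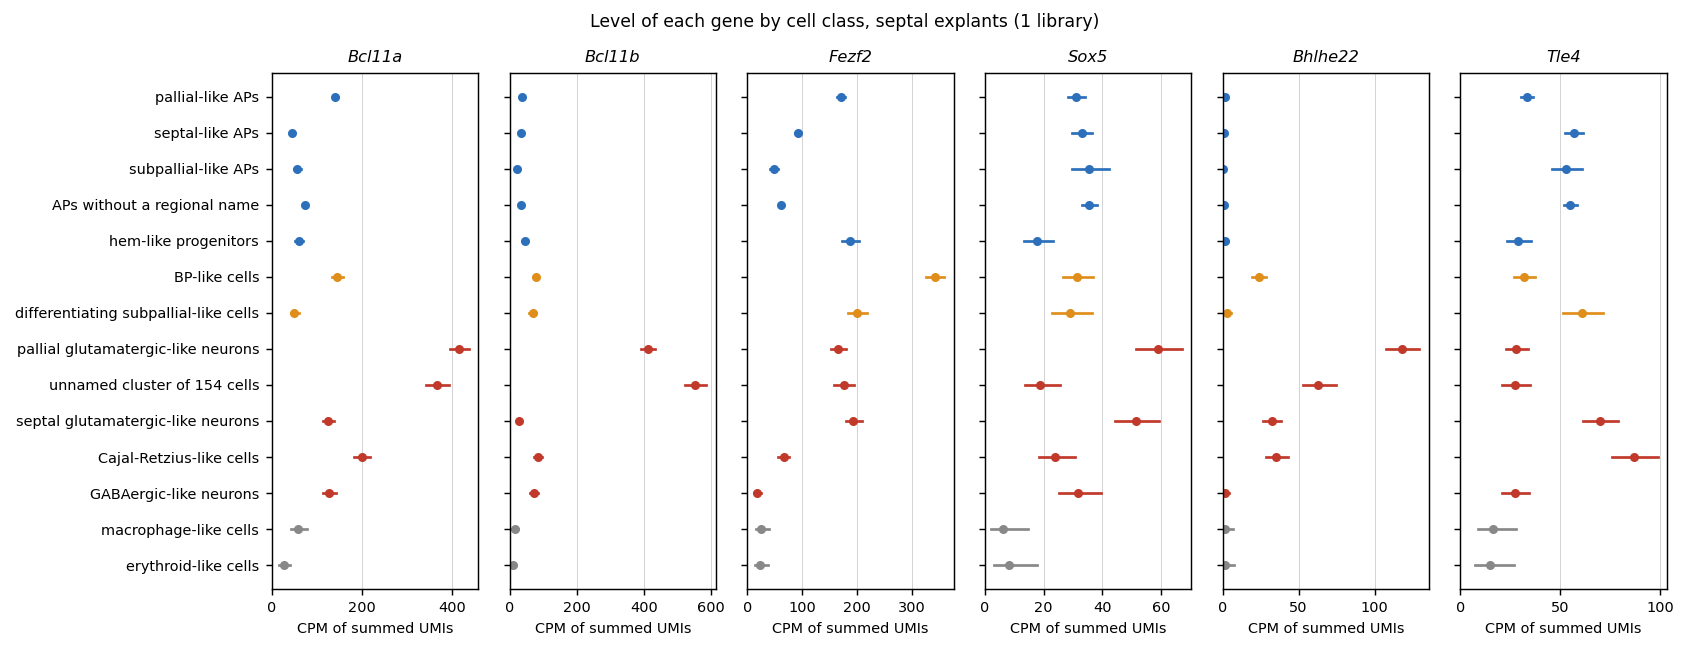
Level of each of the 6 genes (CPM of summed UMIs) in each class of the septal library, with exact Poisson 95% intervals for counting error. Pallial neurons hold 413 CPM of *Bcl11b* and septal neurons 28.7 CPM, while *Fezf2* is highest in BP-like cells at 341 CPM.

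For pallial neurons over pallial-like APs of the septal explants, 3 of the 6 genes were past 2-fold higher, where 15.8% of 10537 genes were, and 0 past 2-fold lower, where 16.5% were. *Bhlhe22* was 66.9-fold higher (45.0-104), *Bcl11a* 2.95-fold (2.76-3.15), and *Bcl11b*, with 413 CPM against 35.9 CPM, by a log2 ratio of 3.52 (an interval of 10.4- to 12.7-fold). *Sox5* was 1.89-fold higher (1.61-2.23), and *Fezf2* and *Tle4* had ratios of 0.972 (0.889-1.06) and 0.836 (0.671-1.03), whose intervals span 1. These values depend on which clusters bear the class name. Under the first form of the naming rule the pallial neurons were a cluster of 104 cells in place of 306, and the log2 ratios were 7.08 for *Bhlhe22* and 4.2 for *Bcl11b*, against 6.06 and 3.52. At a resolution of 0.8, with another seed, with doublets kept and with all barcodes the class held 91, 107, 106 and 110 cells. *Sox5* was past 2-fold higher in 8 of 13 alternatives. Its log2 ratio ran from -0.33 in cells with at least 3 YFP UMIs to 2.25 at a resolution of 0.8. That of *Fezf2* ran from -0.39 in cells with at least 3 YFP UMIs to 0.65 with all barcodes, and 5 of 13 alternatives kept its sign. The median log2 ratio was 1.24 over the 6 genes and 0.03 over all genes counted.

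For septal neurons over septal-like APs, 3 of 6 were past 2-fold higher, where 13.7% of 10601 genes were, and 0 past 2-fold lower, where 16.3% were. *Bhlhe22* was 44.1-fold higher (21.7-105), *Bcl11a* 2.83-fold (2.48-3.22) and *Fezf2* 2.1-fold (1.90-2.31), while *Bcl11b* had a ratio of 0.809 (0.645-1.01). *Sox5* was 1.56-fold higher (1.30-1.87) and *Tle4* 1.23-fold (1.06-1.43). As a median, the log2 ratio was 0.86 over the 6 genes and 0.003 over all genes counted. The class value of *Fezf2* came with the cluster of 183 cells that also met the BP markers, the other cluster being below the 92.0 CPM of septal-like APs. The direction of *Fezf2* turned with the clustering. At a resolution of 0.8, with all barcodes, with cell cycle genes kept and with doublets kept, its log2 ratio was -1.59, -0.46, -0.71 and -0.61 in place of 1.07. The septal neuron class then held 109, 150, 144 and 148 cells in place of 327, with 27.2, 56.8, 55.1 and 55.5 CPM of *Fezf2*.

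For GABAergic-like neurons over subpallial-like APs, 2 of 5 genes were past 2-fold higher, where 15.9% of 8276 genes were, and 1 past 2-fold lower, where 14.3% were. *Bcl11b* was 3.14-fold higher (2.40-4.12) and *Bcl11a* 2.25-fold (1.88-2.70), and *Fezf2* was 2.69-fold lower (1.92-3.83). With all barcodes the log2 ratio of *Bcl11b* was 0.71, short of 2-fold, against 1.65. *Tle4* was 1.95-fold lower (1.46-2.62), and the ratio of *Sox5* was 0.897 (0.667-1.20). *Bhlhe22* had 4 and 1 UMIs. As a median, the log2 ratio was -0.16 over the 5 genes and 0.08 over all genes counted.

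Between the neuron classes of the septal explants, for pallial over septal neurons, 3 of 6 were past 2-fold higher, where 3.1% of 8747 genes were, and 1 past 2-fold lower, where 4.54% were. *Bcl11b* was 14.4-fold higher (11.8-17.8), *Bhlhe22* 3.66-fold (2.98-4.52) and *Bcl11a* 3.33-fold (3.00-3.70), and *Tle4* was 2.5-fold higher in septal neurons (1.99-3.18). *Fezf2* was 1.17-fold higher in septal neurons (1.05-1.30) and *Sox5* had a ratio of 1.14 (0.935-1.39). The log2 ratio of *Bhlhe22* was 0.79, short of 2-fold, in cells with at least 3 YFP UMIs and 3.83 with doublets kept, against 1.87, and that of *Bcl11b* lay between 3.17 and 4.85 over 13 alternatives. The direction of *Fezf2* was not stable, with a log2 ratio from -0.65 in cells with at least 3 YFP UMIs to 3.24 at a resolution of 0.8, and 5 of 13 alternatives kept its sign. That of *Sox5* ran from -1.03 to 1.62 under the same settings. For pallial-like over septal-like APs, 1 of 5 was past 2-fold higher, where 2.75% of 11103 genes were, and 0 past 2-fold lower, where 7.75% were. There *Bcl11a* was 3.19-fold higher (2.89-3.53) and *Fezf2* 1.85-fold (1.72-1.99), *Tle4* was 1.70-fold lower (1.51-1.92), and the ratios of *Bcl11b* and *Sox5* were 1.01 (0.888-1.16) and 0.939 (0.817-1.08). *Bcl11a* was past 2-fold in both of these comparisons and *Bcl11b* in the neurons, and the difference between the comparisons was not tested. Their median log2 ratios were 0.96 (0.01 over all genes counted) and 0.02 (-0.05 over all genes counted).

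**Figure D4:**
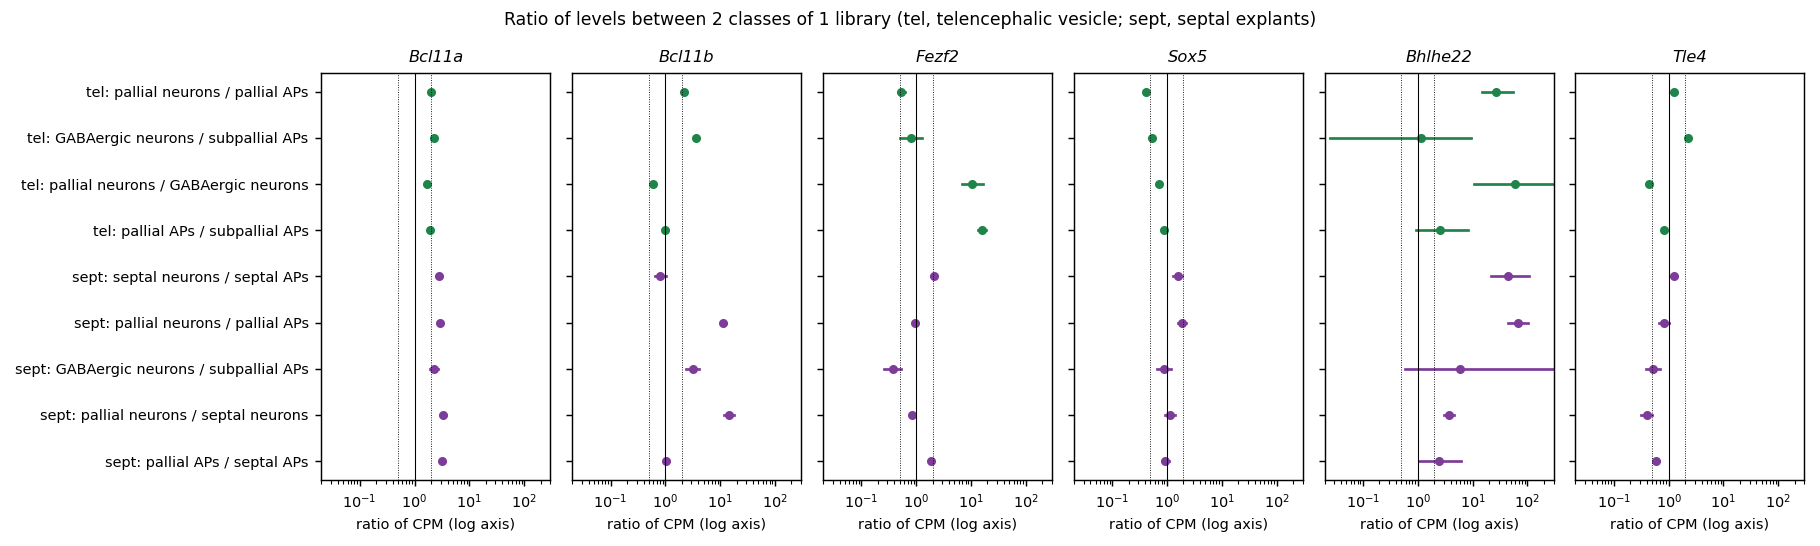
Ratio of the levels of each gene, on a log axis, in the 9 comparisons of classes, with exact 95% intervals for counting error. Dotted lines mark 2-fold in either direction, and intervals that run past the axis end at its edge. *Fezf2* lies furthest from 1 in pallial-like over subpallial-like APs of the telencephalic vesicle (15.8-fold).

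In the septal library the pallial lineage held pallial-like APs, all 345 BP-like cells, whatever their region, and pallial neurons. The septal lineage held septal-like APs and septal neurons, with no BP-like cells, and its median position went from -0.70 in bin 7 to 2.77 in bin 8. The courses of these lineages are therefore not compared. Along the axis of the 1492 cells of the septal library's pallial lineage, *Bcl11b* went from 34.5 CPM to 413 CPM and *Bhlhe22* from 0.784 CPM to 135 CPM, each highest in the last bin. *Fezf2* was highest in bin 7 at 357 CPM [331-384] and was 178 CPM [159-199] in the last. In the 1107 cells of the septal lineage *Fezf2* was highest in bin 8 at 297 CPM [266-331] and *Bhlhe22* in the same bin at 44.1 CPM [32.6-58.3], with 110 and 19.7 CPM at the end. *Bcl11b* there was 15.1 CPM [9.24-23.4] in the last bin, below the 30.8 CPM [22.8-40.8] of the first with a small overlap of the intervals. In the 433 cells of the subpallial lineage *Bcl11b* was highest in bin 6 at 112 CPM [83.1-148] and *Fezf2* in bin 5 at 78.5 CPM [57.9-104], and *Bcl11a* in the last bin at 203 CPM [165-246]. The median position of this lineage went from -0.47 in bin 5 to 2.23 in bin 6.

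The pallial neurons of the septal explants came from 2 clusters that differed in reporter and in most of the 6 genes. In the cluster of 202 cells 67.8% held at least 3 YFP UMIs, and in the cluster of 104 cells 2.88% did, while 73.1% of the latter held none and 23 cells held a tdTomato UMI. Over all kept cells 56.9% held at least 3 YFP UMIs and 30.1% none. *Bcl11b* was 659 CPM [617-703] in the cluster with little YFP and 269 CPM [249-291] in the other, *Bhlhe22* 239 CPM [214-266] and 46.9 CPM [38.6-56.5], and *Sox5* 114 CPM [96.6-133] and 26.6 CPM [20.4-34.0]. *Fezf2* was 258 CPM [232-286] against 112 CPM [98.5-126], and *Bcl11a* 465 CPM [430-502] against 388 CPM [363-414]. *Tle4* did not separate them, at 22.3 CPM [15.2-31.7] and 31.3 CPM [24.5-39.2].

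Split by reporter in place of cluster, the 118 pallial neurons without a YFP UMI had 3.61 times the *Bhlhe22* level (2.81-4.69), 3.06 times the *Sox5* level (2.15-4.40), 2.07 times the *Bcl11b* level (1.84-2.33) and 1.75 times the *Fezf2* level (1.46-2.11) of the 140 with at least 3 YFP UMIs. The 2 sets had like depths, with medians of 11684 and 11304.5 UMIs, and median positions of 3.33 and 3.12 on the axis. Within the cluster of 202 cells, 42 cells without YFP and 137 with it did not differ beyond counting error in any of the 6 genes, with a ratio of 1.05 (0.853-1.28) for *Bcl11b* and 1.10 (0.672-1.75) for *Bhlhe22*. In septal neurons, 110 cells without YFP and 172 with it likewise did not differ beyond counting error, with ratios from 0.811 for *Sox5* to 1.08 for *Fezf2*.

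Pallial-like APs showed a split of the same kind. In a cluster of 297 cells 1.68% held at least 3 YFP UMIs, against 75.4% and 71.5% in the other clusters of 284 and 260 cells. *Bcl11a* was 184 CPM [172-197] in that cluster and 134 CPM [125-144] and 101 CPM [91.8-112] in the others, *Fezf2* 196 CPM [183-209] against 161 CPM [151-172] and 154 CPM [142-167], and *Bhlhe22* 3.78 CPM [2.24-5.98] against 0.338 CPM [0.0409-1.22] and 1.47 CPM [0.540-3.20]. *Bcl11b* and *Tle4* did not separate the 3 clusters. The *Sox5* ratio of pallial neurons over pallial-like APs differed by reporter. Its log2 value was 0.92 over all cells, 1.43 in cells without YFP and -0.33 in cells with at least 3 YFP UMIs. Without and with YFP, *Sox5* was 82.6 and 27.0 CPM in the pallial neurons, but 30.7 and 33.9 CPM in the pallial-like APs.

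**Figure D5:**
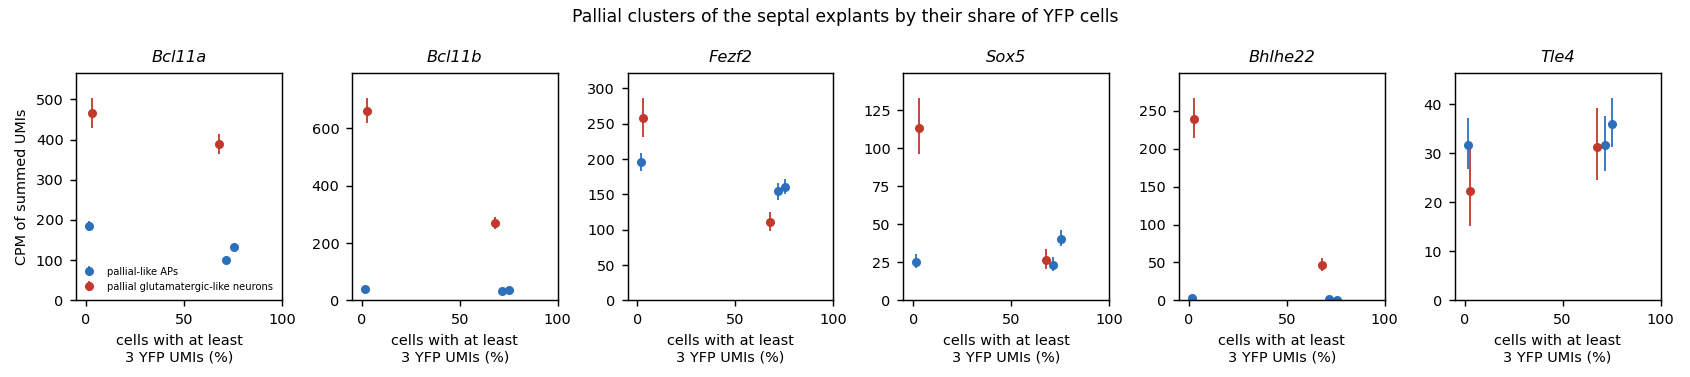
Level of each gene (CPM) in the clusters of the septal explants that make up the pallial neurons and pallial-like APs, with exact Poisson 95% intervals for counting error, set against the percent of their cells with at least 3 YFP UMIs. The pallial neuron cluster with 2.88% YFP cells has 659 CPM of *Bcl11b* and the one with 67.8% has 269 CPM.

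Whether the genes were found in the same cells was examined for the 15 pairs in each neuron class, against the number expected from the shares within cluster and depth group. Of 105 values, 1 had an interval that did not include 1, *Bcl11b* with *Fezf2* in septal Cajal-Retzius-like cells (56 cells against 41.4 expected, a ratio of 1.35 with an interval of 1.02-1.76). In pallial neurons *Bcl11b* and *Fezf2* were found together in 101 cells against 94.0 expected in the telencephalic vesicle (1.07, 0.875-1.31) and in 182 against 177 in the septal explants (1.03, 0.882-1.19). For genes found in most cells of a class the number could hardly move, as with *Bcl11a* in 302 of the 306 pallial neurons of the septal explants. With *Bcl11b* in 263 and *Fezf2* in 196 of these cells, that pair had little room either. These values therefore cannot decide whether such genes share or avoid cells within a class.

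Over clusters the 6 genes did not move as 1 block. As a description across the 21 neural clusters of the telencephalic vesicle and the 25 of the septal explants, which share a library and differ in depth, Pearson's r of log2(CPM + 1) between *Bcl11a* and *Bcl11b* was 0.46 and 0.69, between *Bcl11b* and *Bhlhe22* -0.02 and 0.72, and between *Bcl11b* and *Tle4* 0.37 and -0.53. The genes most like each one were also looked up, among 13484 and 10770 genes. *Fezf2* was followed most closely by *Dmrta2* (0.92), *Dmrta2os* (0.87) and *Neurog2* (0.86) in the telencephalic vesicle and by *Neurog2* (0.83), *Dmrta1* (0.82) and *Fzd1* (0.82) in the septal explants. *Bhlhe22* was followed by *4930438E09Rik* (0.97), *Nhlh2* (0.96) and *Nhlh1* (0.95), and by *Nhlh1* (0.96), *Necab3* (0.94) and *Ppp1r14a* (0.94).

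*Bcl11a* was followed by *Fjx1* (0.90), *Tppp* (0.89) and its antisense neighbour *Gm12064* (0.89) in the telencephalic vesicle and by *Sirt7* (0.90), *Thra* (0.89) and *Epha5* (0.88) in the septal explants. *Bcl11b* was followed by *Ppp1r37* (0.80), *Vps33a* (0.80) and *Dclk2* (0.79), and by *Abcd4* (0.89), *Ttc39b* (0.87) and *Zfp637* (0.85). *Sox5* had *Ric3* (0.84), *Rnf130* (0.82) and *Pxdn* (0.81), and *Lcorl* (0.81), *Cdh10* (0.79) and *Rptor* (0.70). *Tle4* had *Dlg2* (0.88), *Kcnma1* (0.87) and *Zfp804a* (0.83), and *Dnah7a* (0.84), *Slc25a24* (0.79) and *Zbtb20* (0.79). *Neurog2*, one of the BP markers used for naming, for *Fezf2* and *Nhlh1* for *Bhlhe22* were named in both libraries.

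A list of 19 other regulators of projection neurons was read beside the 6 genes. For pallial neurons over pallial-like APs of the telencephalic vesicle, 8 of 18 with enough UMIs were past 2-fold higher and 3 past 2-fold lower, against 16.2% and 22.6% of all genes counted, with a median log2 ratio of 0.45 (-0.16 over all genes). *Tbr1*, a T-box factor of deep-layer neurons and one of the naming markers, had 372 CPM against 2 CPM (186-fold, 143-248), followed by *Pou3f2* (8.09-fold), *Etv1* (7.42-fold) and *Lmo4* (5.83-fold). *Otx1* was 5.93-fold lower, *Ldb2* 2.22-fold and *Nfia* 2.09-fold. Of the septal comparison, 12 of 17 were past 2-fold higher and 2 past 2-fold lower, against 15.8% and 16.5%, with a median of 1.85 (0.03 over all genes), led by *Tbr1* (127-fold), *Zfpm2* (20.4-fold), *Etv1* (12.9-fold) and *Rorb* (6.36-fold), and with *Otx1* (4.44-fold) and *Nr4a2* (4.09-fold) lower.

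For GABAergic-like neurons over subpallial-like APs the list gave 2 of 17 past 2-fold higher, *Sox4* (3.64-fold) and *Sox11* (3.50-fold), and 5 past 2-fold lower, led by *Nfia* (14-fold), *Nfib* (11.6-fold), *Zfpm2* (4.17-fold) and *Otx1* (4.07-fold), in the telencephalic vesicle, against 14.3% and 20.7% of all genes counted. The septal library gave 3 and 3 of 12, against 15.9% and 14.3%. *Sox11* (4.15-fold), *Sox4* (3.45-fold) and *Id2* (2.71-fold) were higher there, and *Nfib* (7.19-fold), *Nfia* (3.52-fold) and *Otx1* (2.03-fold) lower. For septal neurons over septal-like APs 7 of 16 were higher, led by *Tbr1* (80.8-fold), *Rorb* (6.72-fold), *Pou3f2* (3.50-fold) and *Sox4* (3.38-fold), and 3 were lower, *Nfia* (6.87-fold), *Otx1* (6.81-fold) and *Nfib* (4.64-fold), against 13.7% and 16.3% of all genes.

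Between regions, 8 of 18 genes of the list were past 2-fold higher in pallial than in GABAergic-like neurons of the telencephalic vesicle, led by *Tbr1* (105-fold), *Nfib* (16.3-fold), *Nfia* (7.29-fold) and *Etv1* (6.12-fold), and 0 were lower, against 4.39% and 4.27% of all genes counted. In pallial over septal neurons 10 of 16 were higher, led by *Zfpm2* (37.7-fold, 10.1-316), *Nfib* (19.3-fold), *Nfia* (12.3-fold) and *Otx1* (9.76-fold), and *Foxp2* was 2.92-fold lower, against 3.1% and 4.54%. In pallial-like over subpallial-like APs 3 of 18 were higher, *Otx1* (6.44-fold), *Nr4a2* (3.37-fold) and *Tbr1* (2.14-fold), and 6 were lower, led by *Rorb* (6.72-fold), *Pou3f2* (4.23-fold), *Lmo4* (2.99-fold) and *Zeb2* (2.66-fold), against 3.34% and 6.01%. In pallial-like over septal-like APs 3 of 16 were higher, *Otx1* (6.37-fold), *Nr4a2* (2.98-fold) and *Pou3f2* (2.43-fold), and *Lmo4* was 2.33-fold lower, against 2.75% and 7.75%. The median log2 ratios of the list in the comparisons of the last 2 paragraphs were, in the order given, -0.70, -0.16, -0.02, 0.90, 1.22, -0.16 and -0.12, and those of all genes counted -0.12, 0.08, 0.003, -0.07, 0.01, -0.03 and -0.05.

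Among 9 relatives of the 6 genes, *Fezf1*, the paralogue of *Fezf2*, had 86.9 CPM in pallial neurons and 9.18 CPM in pallial-like APs of the telencephalic vesicle (9.47-fold higher, 8.11-11.1), whereas *Fezf2* was lower in the neurons. The *Fezf1* level of pallial neurons was also 17.4-fold that of GABAergic-like neurons. Among septal classes *Fezf1* was 5.86-fold higher in pallial neurons than in pallial-like APs and 2.35-fold higher in septal neurons than in septal-like APs. It was 10.1-fold lower in pallial-like than in septal-like APs (8.35-12.3) and 4.06-fold lower in pallial than in septal neurons (3.44-4.80), and GABAergic-like neurons had less of it than subpallial-like APs in both libraries (3.21-fold and 8.31-fold). *Sox6*, a SoxD relative of *Sox5*, was 3.35-fold lower in pallial neurons than in pallial-like APs of the telencephalic vesicle and 3.48-fold lower in the septal explants, and 2.21-fold higher in pallial-like than in septal-like APs. *Sox13* was past 2-fold lower in neurons in all 5 comparisons of neurons with APs, by 3.98-fold to 7.83-fold. *Tle2* was 6.41-fold higher in GABAergic-like neurons than in subpallial-like APs of the telencephalic vesicle, and *Tle1* 3.13-fold higher in septal neurons than in septal-like APs. The median log2 ratio of the relatives lay between -0.32 and 0.27 in the 9 comparisons, and that of all genes counted between -0.16 and 0.08. In the 5 comparisons of neurons with APs, 0 to 2 of 6 or 7 relatives with enough UMIs were past 2-fold in either direction. Of all genes 13.7% to 16.2% were higher there and 14.3% to 22.6% lower. Between pallial-like and subpallial-like APs 0 of 6 relatives were past 2-fold, where 3.34% of all genes were higher and 6.01% lower.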

How the data were processed

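The data are raw counts, UMIs of each gene in each cell barcode, as deposited by the authors without normalisation. Per the labels and the submitters' processing notes they were made with Cell Ranger 2.1.1 (septal explants) and 7.1.0 (telencephalic vesicle) on mm10. The 5827 and 14283 deposited barcodes were kept when their mitochondrial share lay no more than 3 MAD from the median of the library, leaving 5444 and 12471, and doublets were removed with Scrublet at an expected 0.8% per 1000 barcodes (60 and 713 cells). After scaling to 10000 UMIs a cell and a log transform, 2000 variable genes without the 6 genes, reporters, sex-linked genes and 104 cell cycle genes, 30 principal components, 15 neighbours and Leiden clustering at 1.5 (scanpy 1.11.5, igraph 0.11.9) gave the clusters. A cluster was named from at least 3 markers that 5% of its cells held at 1.5 times the level of other clusters. The naming rule was revised with the clusters in view, and its first form served as an alternative. Cells of subpallial-like clusters between AP and neuron were set apart as differentiating.

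For shares, cells were thinned to 8000 and 3500 UMIs, leaving out 511 and 1145 shallower cells. Named genes were all 6 genes, the listed genes past 2-fold with the 4 largest ratios in each direction, and the 3 genes most like each of the 6 among those with at least 200 UMIs. 1 gene of the list of regulators is not reported here and was left out of its counts. The 6 genes, lists and tests were chosen with earlier results of these data known. Scripts used Python 3.11.15, numpy 2.4.6, scipy 1.17.1 and pandas 2.3.3, and were tested on simulated data. Alternatives were another fold, UMI minimum, clustering, cell filter, depth, normalisation, bins and expectation. The naming rule, the addition of the unnamed neuron cluster and the restriction by YFP were chosen after seeing the data. Gene coordinates are from GENCODE M21 (GRCm38).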

Additional observations from a re-analysis of the deposited data

Results flagged for a closer look

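The change of *Sox5* from pallial-like APs to pallial neurons went in opposite directions in the 2 libraries, with a ratio of 0.423 in the telencephalic vesicle and 1.89 in the septal explants. In the septal explants the ratio on the log2 scale was 1.43 in cells without YFP and -0.33 in cells with at least 3 YFP UMIs. The change of *Tle4* from subpallial-like APs to GABAergic-like neurons was also opposite, with a ratio of 2.30 in the telencephalic vesicle and 0.514 in the septal explants, where its log2 value was -1.54 in cells without YFP and -0.51 in cells with YFP. Each library is 1 sample of another dissection, kit and counting version, and the differences between them were not tested. *Sox5* and *Tle4* also have the largest intron shares of the 6 genes, 98.5% and 96.2%. Whether intronic reads were counted in the telencephalic vesicle is not given, and the part of this in the opposite directions was not tested. The *Tle4* value of that library pools 2 GABAergic subtypes, of which only the Isl1/Ebf1 neurons were past 2-fold.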

How the results depend on the processing

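Counts of genes past a ratio depended most on its value and on the UMI minimum. At 1.5-fold, with the comparisons in the order pallial neurons over APs, GABAergic-like neurons over APs, pallial over GABAergic-like neurons and pallial-like over subpallial-like APs, the telencephalic vesicle gave 7586, 7209, 1812 and 2608 of 12872, 13180, 10568 and 13852 genes. With at least 1 UMI it gave 12064, 11634, 6075 and 6350 past 2-fold, out of larger sets of genes whose sizes are not given here. In the septal explants, in the order septal neurons over APs, pallial neurons over APs, GABAergic-like neurons over APs, pallial over septal neurons and pallial-like over septal-like APs, 5309, 5401, 4191, 1569 and 2332 of 10601, 10537, 8276, 8747 and 11103 genes were past 1.5-fold. With at least 1 UMI the counts past 2-fold were 7773, 7857, 7086, 4498 and 4985, again out of larger sets of genes. Doublets kept gave 2593 genes for GABAergic-like neurons of the telencephalic vesicle, thinning 3306 for pallial neurons and 726 for its APs, and cells without YFP 2009, 1149 and 742 for septal neurons, GABAergic-like neurons and APs of the septal explants.

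Of the 6 genes, 5 were past 1.5-fold between pallial and GABAergic-like neurons, 2 between APs of the telencephalic vesicle (2 also with at least 1 UMI) and 3 between APs of the septal explants, where 2 were past 2-fold at a resolution of 0.8, with all barcodes, another seed, at least 1 UMI, cell cycle genes kept or doublets kept. The counts of all genes past 1.5-fold are given in the paragraph above, and the shares of all genes past 2-fold with each comparison. Between pallial and GABAergic-like neurons 1 passed at a resolution of 2.5, for pallial neurons of the telencephalic vesicle 2 with cell cycle genes kept, for its GABAergic-like neurons 1 with doublets kept, and for septal neurons 1 with all barcodes, cell cycle genes kept, doublets kept or cells without YFP. The UMI minimum had a part in this. The ratio of *Bhlhe22* stayed past 2-fold in 7 of 7 alternatives between pallial and GABAergic-like neurons and in 13 of 13 for septal neurons over APs. In cells without YFP the latter rested on 33 and 1 UMIs, under the minimum of 50. The *Fezf2* log2 ratio of septal neurons over APs was -1.59, -0.46, -0.71 and -0.61 at a resolution of 0.8, with all barcodes, cell cycle genes kept and doublets kept, in which the class held 109 to 150 cells in place of 327. Of 592 log2 ratios of the 6 genes under alternatives these 4 reversed a ratio past 2-fold, 369 moved by less than counting error and 219 moved further. At a resolution of 0.8, with another seed and with all barcodes no cluster of the telencephalic vesicle was named pallial glutamatergic, and these gave no value for that class. Depth limits what can be said of *Bhlhe22* outside the neurons. No paired analysis was possible because each condition has 1 library.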
